A study of Mus musculus with 22 samples.

Results

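DNA methylation was compared between malignant and premalignant mammary glands of MMTV-PyMT mice, in which the mouse mammary tumor virus promoter drives the polyoma middle T antigen in mammary epithelium and tumors arise spontaneously. The comparison used 10 of the 22 samples of the series, 5 malignant and 5 premalignant. The premalignant glands were hyperplasia at week 6 (2 mice) and adenoma/mammary intraepithelial neoplasia (MIN) at week 8 (3 mice), and the malignant glands were early carcinoma at week 10 (3 mice) and late carcinoma at week 12 (2 mice). The PyMT mice were F1 females on the FVB/N background, heterozygous for the transgene. Each change was set beside 12 age-matched FVB females without the transgene, 6 of them at weeks 6 and 8 and 6 at weeks 10 and 12. Every sample was bulk tumor or whole gland of 1 mouse, so a change in the make-up of the cells and a change of methylation within cells cannot be told apart. Stage and age rise together in the PyMT mice, so a PyMT change was read against the change in FVB glands over the same weeks. PyMT and FVB mice are called strains below as a label only, since the PyMT mice were bred on the FVB background. The labels give carcinoma as the disease state of all 10 PyMT samples, so the stages were taken from week and tumor stage. The transgene is not part of the mouse reference, and its presence in each sample was not checked here.

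Methylation of cytosine in CpG dinucleotides is copied at cell division by Dnmt1 and removed through oxidation by the Tet enzymes. CpG-rich promoters are usually unmethylated in normal tissue, whereas most CpG positions between genes are methylated. In many tumors CpG-rich promoters gain methylation while intergenic DNA loses it, and promoters of developmental genes held silent by Polycomb repressive complex 2 (PRC2) are frequent sites of gain. Enhanced reduced representation bisulfite sequencing (ERRBS), the assay used here, reads methylation at CpG positions near the cut sites of MspI, an enzyme that cuts at CCGG, and so covers CpG-rich DNA most densely.

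The 10 PyMT files held between 1329763 and 1435757 CpG positions each, with a mean coverage of 60.2 to 79.2 reads per position. Of 1535962 autosomal positions seen in at least 1 PyMT file, 1174759 (76.5%) were covered by at least 10 reads in all 10 and were tested. The mitochondrial cytosines, which serve as a gauge of incomplete conversion, read as 0.179% to 0.276% methylated in the PyMT samples. Replicates of a stage were separate libraries, since the chi-square between their read counts averaged 2.19 to 3.13 over positions and noise alone would average about 1. Single mice moved the counts of calls below, and the largest such moves are stated beside those counts.

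The regions below carried the largest gains and losses that differed from FVB glands and whose malignant and premalignant mice did not overlap. Each sequence is the plus strand of mm10 (GRCm38), 5′ to 3′, with every CpG in capitals. The first 3 gained methylation and the other 4 lost it.
Upstream of Ajap1, chr4:153483215-153483250: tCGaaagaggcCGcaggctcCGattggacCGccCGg
Mab21l2 coding exon, chr3:86547105-86547399: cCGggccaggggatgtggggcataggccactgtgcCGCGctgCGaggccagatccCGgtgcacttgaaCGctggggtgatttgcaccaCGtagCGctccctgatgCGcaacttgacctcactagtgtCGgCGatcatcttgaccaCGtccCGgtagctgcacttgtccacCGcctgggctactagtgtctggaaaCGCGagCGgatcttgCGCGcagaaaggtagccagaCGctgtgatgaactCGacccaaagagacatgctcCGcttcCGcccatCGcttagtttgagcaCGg
Fam43a coding exon, chr16:30601070-30601134: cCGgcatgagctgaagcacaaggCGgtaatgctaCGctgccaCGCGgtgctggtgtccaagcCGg
Intergenic, nearest start Dkk2, chr3:132304910-132304963: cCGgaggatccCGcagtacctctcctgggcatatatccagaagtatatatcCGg
Dlgap2 intron, chr8:14788340-14788413: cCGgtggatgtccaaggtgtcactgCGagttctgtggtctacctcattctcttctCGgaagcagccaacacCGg
Scube3 exon and intron, chr17:28153587-28153715: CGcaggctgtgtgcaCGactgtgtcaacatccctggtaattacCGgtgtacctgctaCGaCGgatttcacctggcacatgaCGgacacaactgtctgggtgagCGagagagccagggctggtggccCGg
Eml2 coding exon, chr7:19182323-19182382: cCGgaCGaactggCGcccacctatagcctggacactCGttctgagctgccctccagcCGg

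Across all tested positions, methylation was nearly level between the phases, with higher values near transcription start sites and lower values between genes in malignant glands. The mean over all positions was 24.7% ± 0.29 (SD, n = 5) in premalignant and 24.7% ± 0.17 (SD, n = 5) in malignant glands, a difference of 0.0454 points (two-sided exact permutation test, p = 0.754). Within 500 bp of a start, the premalignant mice stood at 1.76% and 1.69% in hyperplasia and 1.87%, 1.88% and 1.88% in adenoma/MIN. The malignant mice stood at 1.97%, 2.01% and 1.89% in early carcinoma and 2.08% and 2.09% in late carcinoma. All malignant mice thus lay above all premalignant mice, although early carcinoma replicate 3 lay only just above the adenoma/MIN mice. The difference of 0.190 points had an exact permutation p of 0.00794, the smallest that 5 against 5 allows, and 0.0794 after Benjamini-Hochberg adjustment over 10 such values. The 12 FVB mice, read at the positions covered in all 22 samples, ranged from 1.63% to 1.79%, and their late minus early difference was 0.0244 points (exact permutation p = 0.366). The PyMT change exceeded the FVB change by 0.166 points (exact permutation within strains, p = 0.0445, adjusted p = 0.171).

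From 500 to 2000 bp of a start, methylation was 10.1% ± 0.20 (SD, n = 5) in premalignant and 10.5% ± 0.23 (SD, n = 5) in malignant glands (exact permutation p = 0.0159, adjusted p = 0.0794). FVB glands differed by 0.155 points over the same weeks, and the difference between the strains missed the threshold (exact permutation p = 0.167). Between genes, premalignant glands averaged 53.1% ± 0.86 (SD, n = 5) and malignant glands 52.4% ± 0.57 (SD, n = 5), a difference of -0.680 points (exact permutation p = 0.175). The FVB glands went the other way by 0.591 points (exact permutation p = 0.00216), so the strains differed by -1.27 points (exact permutation p = 0.0103, adjusted p = 0.103). None of the 10 differences between the strains passed after adjustment. The plot of class means by mouse shows the PyMT levels within 500 bp of a start diverging from FVB with week. From 500 to 2000 bp the PyMT mice lay below the FVB mice at week 6 and above them at week 12. The intergenic PyMT levels lay below FVB at every week. These PyMT levels use the positions covered in all 10 PyMT files and the FVB levels those covered in all 22 samples. Small gaps in level between them are therefore not like for like, while the tests of the difference in change used shared positions.

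**Figure D1:**
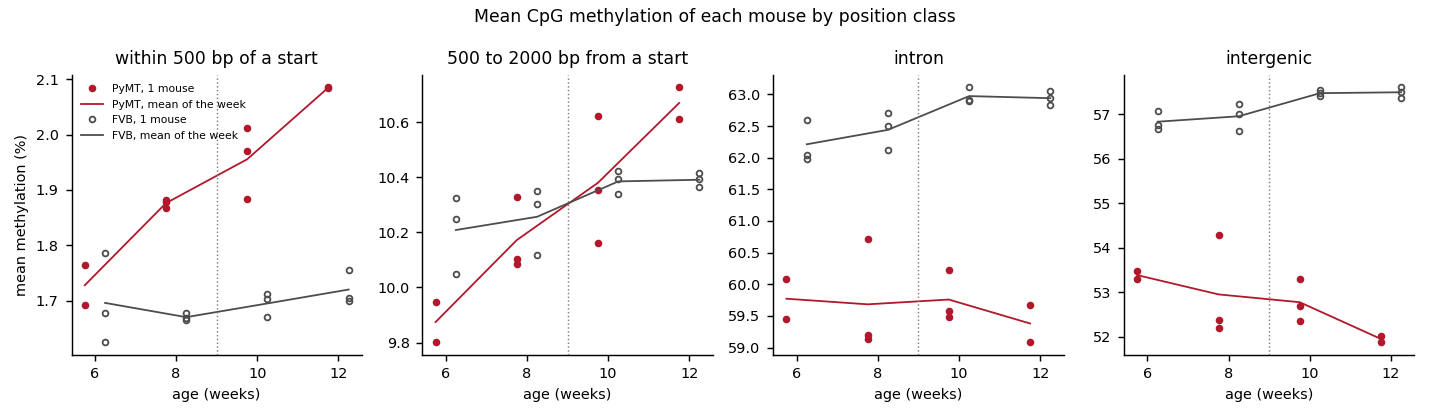
Mean CpG methylation (percent, vertical axis) of each mouse by age in weeks in 4 classes of position; filled points are PyMT mice, open points FVB mice, lines join the means of the weeks and the dotted line divides premalignant from malignant. Within 500 bp of a start the PyMT mice run from 1.69% to 2.09% and the FVB mice from 1.63% to 1.79%, and between genes every PyMT mouse lies below every FVB mouse. The vertical axes differ and do not start at 0. PyMT means use the positions covered in all 10 PyMT files and FVB means those covered in all 22 samples.

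At single positions, 13245 gained methylation in malignant glands and 11774 lost it, which is 1.13% and 1% of those tested (logistic likelihood ratio test, q under 0.01 and at least 10 points). This test takes reads as its units and does not see the spread between mice. With that spread in the model, 1006 gained and 587 lost by a chi-square test, and 0 and 0 by an F test. Of the positions called, 2340 gains (0.199% of tested) and 1680 losses (0.143%) had all 5 malignant mice on one side of all 5 premalignant mice. The share of all tested positions with such a separation, called or not, was not computed. These counts therefore have no background beside them. Without hyperplasia replicate 1 the counts were 10406 and 8091, and without adenoma/MIN replicate 3 they were 15830 and 15846. The early carcinoma mice compared with the adenoma/MIN mice alone gave 6191 gains and 4984 losses.

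Gained positions lay in CpG-rich DNA more often than lost ones. The median CpG density within the surrounding 500 bp was 3.6 per 100 bp at gained, 2 at lost and 7.2 at all tested positions. Within 500 bp of a start lay 17% of gains, 2.35% of losses and 47% of all positions, and between genes lay 29.3%, 50.3% and 17.2%. In the class within 500 bp of a start, 2256 positions gained and 277 lost, while between genes 3883 gained and 5926 lost. Most called positions were intermediate before malignancy, since 67.3% of gains and 67.5% of losses stood between 20% and 80% in premalignant glands against 14.1% of all positions.

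**Figure D2:**
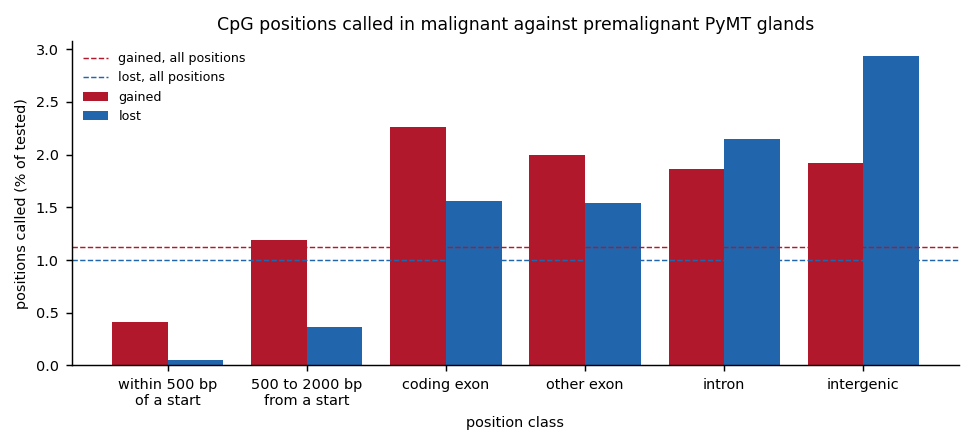
Share of tested CpG positions called in malignant against premalignant PyMT glands (percent, vertical axis) by class of position, with gains and losses as bars and the shares over all positions as dashed lines. Gains exceed losses near starts and in exons, and losses exceed gains in introns and between genes, up to 2.93% of intergenic positions.

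The levels at these positions are given by stage as a description, since the positions were chosen for the difference. At gained positions the median methylation was 35.7% in hyperplasia, 43.8% in adenoma/MIN, 58.2% in early and 59.8% in late carcinoma, and between 35.2% and 35.9% at the 4 FVB ages. At lost positions it was 72.8%, 66.4%, 53.6% and 50%, and between 79.2% and 80.7% in FVB. The largest step in both directions lay between weeks 8 and 10, which the choice of positions favors, so it does not date the change. Hyperplasia stood at the FVB level for gains but below it for losses.

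The same test in FVB glands, over the 1115690 positions covered in all 22 samples, called 7173 gains (0.643%) and 2892 losses (0.259%) over the same weeks. PyMT glands had 13009 and 11512 there. Of the PyMT gains, 279 were also gained in FVB and 124 were lost in FVB. Of the PyMT losses, 84 were also lost in FVB and 225 were gained in FVB. A gained position lay within 2 kb of a start in 1528 genes, of which 1367 had none gained in FVB, and a lost position in 685 genes, of which 639 had none lost in FVB. Both kinds lay in 105 genes. The share of all genes with a promoter position called in FVB is not given. These counts therefore do not show how many genes changed in PyMT only. Among the 15154 genes with at least 5 promoter positions, 1460 (9.63%) held a gained and 583 (3.85%) a lost one.

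Promoter methylation, the mean of the positions within 2 kb of any start of a gene, was tested with the mouse as the unit in 15154 genes with at least 5 positions. Of these, 306 were higher by at least 5 points in malignant glands and 114 lower by at least 5. In the 10 PyMT mice alone, 1 promoter passed as gained (0.0066% of tested) and 0 as lost by limma (adjusted p under 0.05 and at least 5 points), and by limma with its trend and robust options off the counts were again 1 and 0. At an unadjusted p under 0.05, 1381 were higher (9.11%) and 363 lower (2.4%). The count of gained promoters was 6 without early carcinoma replicate 3, 2 on an arcsine square root scale, and 0 with a coverage minimum of 20 reads, with coverage weights, with windows of 500 bp or between weeks 8 and 10 alone. It was also 0 in 6 of the 10 fits that left out a mouse, namely without either hyperplasia mouse, adenoma/MIN replicate 1, early carcinoma replicate 2 or either late carcinoma mouse.

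The promoter that passed was that of Serping1, which encodes the C1 inhibitor of the complement and contact systems (chromosome 2, start 84775429, minus strand, 7 positions at 84774880 to 84775007). Its premalignant mice stood at 18.6% and 15.5% in hyperplasia and 17.4%, 21.9% and 19.3% in adenoma/MIN. Its malignant mice stood at 35.4%, 30% and 33.4% in early carcinoma and 31.5% and 29.4% in late carcinoma. The lowest malignant mouse lay 7.41 points above the highest premalignant one, and the premalignant mice lay within the FVB range of 12% to 22.4%. The change was 13.4 points (SE 1.48, limma adjusted p = 0.0475). This call was lost in those 6 fits and without adenoma/MIN replicate 3, with a limma adjusted p of 0.0333 to 0.157 over the 10 fits. The change exceeded the FVB change by 13.5 points (SE 2.67, limma adjusted p = 0.0202).

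The fit over all 22 mice asked which promoters changed by a different amount in PyMT than in FVB glands over the same weeks. Among 14993 genes, the PyMT change lay above the FVB change in 116 (0.774%) and below it in 5 (0.0333%) by limma at an adjusted p under 0.05. Of these, 41 of the first and 4 of the second differed by at least 5 points. Unadjusted, 1210 and 453 passed. In FVB glands themselves, limma called 0 promoters over these weeks, 0 on the arcsine square root scale too, with 603 higher and 275 lower at an unadjusted p under 0.05. Across the 116, the median promoter stood at 3.85% in hyperplasia, 4.51% in adenoma/MIN, 6.8% in early and 8.67% in late carcinoma, and between 1.93% and 2% in FVB. In 87 of the 116 (75%) all malignant mice lay above all premalignant mice, against 2.5% of all promoters, and this contrast is part of how they were chosen.

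These calls moved with the scale and with single mice. The fit shares 1 spread among the 4 groups, and 104 of the 116 (89.7%) varied more between PyMT mice (median SD 1.08 points) than between FVB mice (median SD 0.428). With 1 weight per strain, estimated over all promoters together, the total was 136 and included all 121. Over all promoters the median SD was 0.225 points in PyMT and 0.224 in FVB mice. A weight common to all promoters therefore cannot adjust for the wider PyMT spread at the 116. With the arcsine square root scale the total was 43, with 40 of them among the 116. The total of 121 was 47 without hyperplasia replicate 2, 387 without early carcinoma replicate 3 and 310 without adenoma/MIN replicate 3, and 51 to 76 without any 1 of the FVB mice other than week 8 replicate 2 (94). The 12 promoters with the largest PyMT change among the 116, and all 5 lower ones, are described next and were chosen after their values were seen. Their positions were covered by a mean of 44.4 to 89.9 reads per mouse.

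The widest gain was at Mab21l2, a gene of eye and body wall development that lies within an intron of Lrba (chromosome 3, start 86548283, minus strand, 34 positions). Premalignant mice stood at 37.1% and 48.9% in hyperplasia and 47%, 48.2% and 53.3% in adenoma/MIN, and malignant mice at 62.8%, 68.2% and 65.6% in early and 72.4% and 60.6% in late carcinoma. The groups did not overlap, and all FVB mice were lower, between 14.9% and 27.4%. The change was 19.01 points (SE 3.09) and exceeded that in FVB by 22.83 (SE 3.66, limma adjusted p = 0.00595).

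Ackr3 encodes an atypical receptor that takes up the chemokine Cxcl12 (chromosome 1, start 90203980, plus strand, 17 positions). Its premalignant mice stood at 39.8%, 36.4%, 49.1%, 38.4% and 40.3%, and its malignant mice at 57.8%, 59.9%, 51.6%, 55.2% and 53.3%. The groups did not overlap, although adenoma/MIN replicate 1 lay within 2.51 points of early carcinoma replicate 3. FVB mice lay between 13.6% and 26.7%, and the PyMT change exceeded theirs by 18.68 points (SE 3.01, limma adjusted p = 0.00595).

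Rfx8, a member of the RFX family of DNA-binding proteins, had the lowest adjusted p of the 17 (chromosome 1, start 39720989, minus strand, 47 positions). Its premalignant mice stood at 17.2%, 15%, 21.7%, 18.1% and 18.6% and its malignant mice at 31%, 35.1%, 27.5%, 32.4% and 28.3%, with no overlap. FVB mice lay between 3.78% and 8.14%, and the difference from them was 13.22 points (SE 1.71, limma adjusted p = 0.00059).

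Pnma1, of the paraneoplastic antigen family derived from retrotransposons, went from a mean of 43.8% ± 6.82 (SD, n = 5) to 60.9% ± 4.13 (SD, n = 5) over 59 positions on chromosome 12. Its groups overlapped, because adenoma/MIN replicate 3 stood at 55.6% and early carcinoma replicate 2 at 54.7%. Tcf20, a transcriptional coregulator on chromosome 15, went from 24.1% ± 5.19 (SD, n = 5) to 39.4% ± 4.74 (SD, n = 5) with no overlap. Mir1905, a microRNA gene on chromosome 3, went from 21% ± 3.54 (SD, n = 5) to 37.8% ± 5.35 (SD, n = 5), also with no overlap. Its premalignant mean already lay above all FVB mice (11.7% to 17.3% at weeks 6 and 8, 12.6% to 20.5% at weeks 10 and 12).

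Rbm46 encodes an RNA-binding protein of germ cell meiosis and shares its promoter with the antisense gene Rbm46os on chromosome 3. Its 114 positions averaged 29.5% ± 3.77 (SD, n = 5) in premalignant and 42.2% ± 3.85 (SD, n = 5) in malignant glands, and 48 of them were gained singly. These genes differed from FVB by 18.18 (Pnma1), 15.35 (Tcf20), 15.93 (Mir1905) and 13.30 points (Rbm46), with limma adjusted p from 0.00914 to 0.0112. For Mab21l2, Ackr3, Rfx8, Pnma1, Tcf20, Mir1905 and Rbm46 the difference from FVB passed without each of the 22 mice in turn and on the arcsine square root scale.

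The other gains passed in fewer settings. Bhmt2, a homocysteine methyltransferase that shares its promoter with Dmgdh, the choline pathway enzyme dimethylglycine dehydrogenase, stood at 40.5% ± 5.76 (SD, n = 5) and 57% ± 5.07 (SD, n = 5) with no overlap. Trim17, a ubiquitin ligase of the tripartite motif family, stood at 67.8% ± 5.32 (SD, n = 5) and 82.6% ± 4.84 (SD, n = 5). Cntnap5a, of the contactin-associated family of neural adhesion proteins, stood at 13.8% ± 3.07 (SD, n = 5) and 27.3% ± 7.05 (SD, n = 5) over only 6 positions. Tacc2, a centrosomal coiled-coil protein, stood at 27.4% ± 4.86 (SD, n = 5) and 40.6% ± 5.9 (SD, n = 5), and the groups overlapped at Trim17, Cntnap5a and Tacc2. Their differences from FVB had limma adjusted p from 0.035 to 0.0427, and passed in 10 (Bhmt2), 7 (Trim17), 4 (Cntnap5a) and 3 (Tacc2) of the 22 fits that left out a mouse. On the arcsine square root scale Trim17 passed and the other 3 did not. That of Serping1 passed in 21 and had an adjusted p of 0.0522 on the arcsine square root scale.

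The 5 lower promoters had lower means in malignant than in premalignant glands, beside FVB means that were level or higher at the later weeks. In 4 of the 5 all malignant mice lay below all premalignant mice, against 0.414% of all promoters, and this contrast is part of how they were chosen. Fgf6, a fibroblast growth factor of skeletal muscle on chromosome 6, stood at 64.9%, 66.4%, 65.8%, 65.2% and 69.5% in premalignant and 64.1%, 60.8%, 60.4%, 61.6% and 59.2% in malignant mice. All malignant mice lay below the others, while FVB mice averaged 74.8% ± 2.94 (SD, n = 6) at weeks 6 and 8 and 79.8% ± 1.8 (SD, n = 6) at weeks 10 and 12. The difference of -10.15 points (SE 1.97, limma adjusted p = 0.0183) passed without each of the 22 mice in turn and on the arcsine square root scale. 4933409F18Rik on chromosome 12 changed mainly in FVB, from 69.3% ± 4.04 (SD, n = 6) to 81.2% ± 2.67 (SD, n = 6), against 52.3% ± 6.51 (SD, n = 5) and 49.2% ± 3.41 (SD, n = 5) in PyMT over 5 positions. Gm34653, Ubqln5 of the ubiquilin family and Mir330 had malignant mice below all premalignant ones, with means of 77.6% and 66.1%, 76.8% and 70.3%, and 13.9% and 11.4%. Their differences from FVB passed in 6 or 7 of the 22 fits that left out a mouse, and like that of 4933409F18Rik they missed the threshold on the arcsine square root scale.

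**Figure D3:**
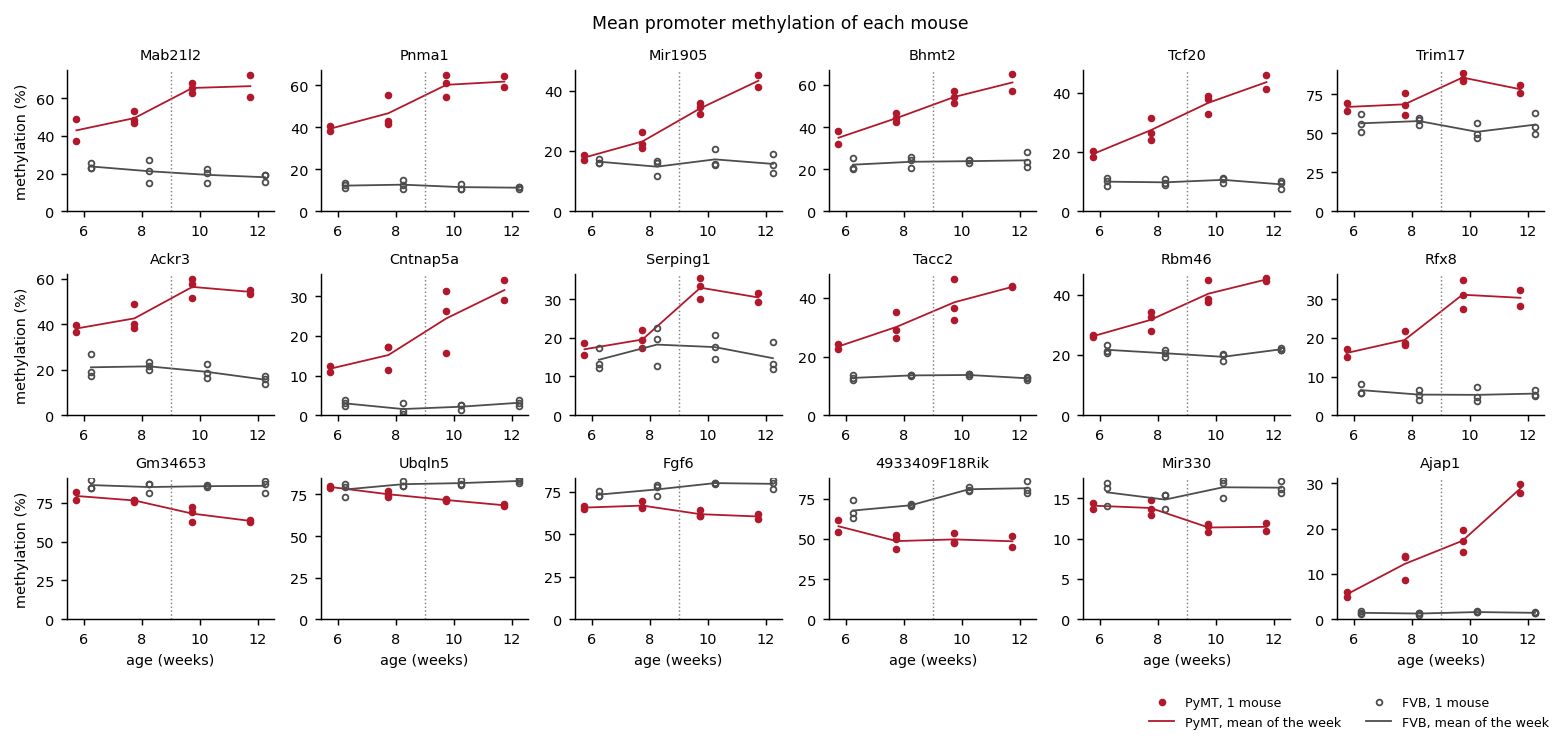
Mean promoter methylation (percent, vertical axis) of each mouse by age in weeks for the 12 higher promoters, the 5 lower ones and Ajap1; filled points are PyMT mice, open points FVB mice, lines join the means of the weeks and the dotted line divides premalignant from malignant. At Mab21l2 the malignant mice lie between 60.6% and 72.4%, above premalignant mice at up to 53.3% and FVB mice at up to 27.4%.

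Genes with the most gained positions were also looked up after their values were seen. Ajap1, which encodes an adherens junction-associated membrane protein, held the most, with 116 of 235 positions on chromosome 4. Its promoter stood at 6.09% and 4.82% in hyperplasia, 8.74%, 14% and 13.8% in adenoma/MIN, 17.3%, 19.7% and 14.9% in early carcinoma and 29.8% and 27.9% in late carcinoma. The groups did not overlap, and FVB mice lay between 1.02% and 1.77%. The difference from FVB was 12.27 points (SE 2.96) with a limma adjusted p of 0.0534, and 0.0461 with 1 weight per strain over all promoters.

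Gabra5, a subunit of the GABA-A receptor, held 64 gained positions, and its promoter averaged 14.2% ± 4.62 (SD, n = 5) and 26.4% ± 6.77 (SD, n = 5) against 1.92% to 3.28% in FVB mice (adjusted p of the difference 0.0635). Rbmxl2, a testis RNA-binding protein, held 51, and the pseudogene Nlrp5-ps 40. Tafa5, a secreted chemokine-like protein of the nervous system, held 38, and its promoter averaged 2.8% ± 1.1 (SD, n = 5) and 6.83% ± 1.2 (SD, n = 5) with a difference from FVB of 3.85 points (SE 0.65, limma adjusted p = 0.00846). Lost positions were most frequent at Foxs1, a forkhead transcription factor, with 19 of 29, where the means were 57.2% ± 6.9 (SD, n = 5) and 43.5% ± 4.42 (SD, n = 5) without overlap. Irf8, a transcription factor of macrophages and dendritic cells, followed with 10 of 42 and means of 12.7% ± 2.81 (SD, n = 5) and 7.41% ± 2.01 (SD, n = 5) against 18.4% to 24.7% in FVB mice. The differences from FVB at Foxs1 (limma adjusted p = 0.066) and Irf8 (limma adjusted p = 0.432) missed the threshold.

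Of the genes of the methylation and Polycomb machinery, Ezh2, Eed, Suz12, Dnmt3a, Tet1 and Tet2 had nearly unmethylated promoters in both phases, while Dnmt1, Dnmt3b and Tet3 stood higher. Ezh2, the methyltransferase of PRC2, averaged 0.168% and 0.14%, and its partners Eed and Suz12 stood at 0.164% and 0.138%, and 0.137% and 0.157%. The de novo methyltransferase genes Dnmt3a and Dnmt3b averaged 0.324% and 0.306%, and 2.87% and 2.7%, and Dnmt1 8.46% and 8.4%. Tet1, Tet2 and Tet3, which oxidize methylcytosine, stood at 0.341% and 0.477%, 0.148% and 0.0997%, and 1.2% and 1.32%. The 9 promoters had groups that overlapped and limma adjusted p of 0.716 or more, which does not show that they were equal. Fzd5, a Frizzled receptor of Wnt signaling, averaged 4.39% ± 0.7 (SD, n = 5) and 6% ± 0.84 (SD, n = 5) with no overlap, against 0.626% to 1.22% in FVB mice. Neither its change in PyMT (limma adjusted p = 0.196) nor its difference from FVB (limma adjusted p = 0.0835) passed.

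Regions of up to 300 bp with at least 5 positions gave no call among the 10 PyMT mice. Of 59005 regions, 0 gained and 0 lost by limma (0% and 0%), with a lowest adjusted p of 0.278 and 3548 higher and 2080 lower at an unadjusted p under 0.05. With trend and robust off the counts were again 0 and 0. Over 56791 regions, the PyMT change lay at least 10 points above the FVB change in 45 (0.0792%) and at least 10 below it in 17 (0.0299%) by limma. None passed on the arcsine square root scale, where 2958 and 2662 passed unadjusted. Without size limit the count was 118, which fell to 11 without FVB week 12 replicate 1 and was 500 without early carcinoma replicate 3, 492 without adenoma/MIN replicate 3 and 258 without early carcinoma replicate 2. It was 12 and 21 without hyperplasia replicates 2 and 1, 54 without late carcinoma replicate 1, 73 without adenoma/MIN replicate 1 and 29 to 72 without any 1 of the other FVB mice.

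Of the 45 regions with greater gain, 23 lay within 2 kb of a start, 29 in a gene and 12 in coding exons, and of the 17 with greater loss 1, 10 and 5. The same shares over all tested regions were not computed. Of all tested positions, 47% lay within 500 bp of a start and 13.7% from 500 to 2000 bp. The counts therefore do not show that gains favored starts beyond what the assay covers. The median of the 45 was 23.2% in hyperplasia, 27% in adenoma/MIN, 37.3% in early and 42.8% in late carcinoma, and between 9.46% and 11.8% in FVB. The median of the 17 was 71.6%, 67.6%, 58.8% and 58.4%, with FVB at 80.1% at week 6 and 86.1% at week 12. The malignant and premalignant mice did not overlap in 38 of the 45 and 11 of the 17, against 1.62% and 0.622% of all regions in each direction, a contrast that is part of their choice. The 6 regions each way with the largest PyMT change, at most 1 per gene or 10 kb, are given with that choice made after the values were seen. The regions near Ajap1 and in Mab21l2, Pnma1 and Eml2 lie within promoters described above, so they are not separate results from those promoters.

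The region 402 bp upstream of the Ajap1 start stood at 12.9% and 8.41% in hyperplasia, 24%, 23.7% and 26.7% in adenoma/MIN, 37.9%, 41.1% and 40% in early carcinoma and 50.9% and 57.5% in late carcinoma. The 4 stages did not overlap one another, and FVB mice stayed between 1.46% and 4.52%. All 8 of its positions were gained singly, and the difference from FVB was 25.51 points (SE 4.45, limma adjusted p = 0.0224).

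The Mab21l2 exon printed above, 1031 bp downstream of its start, stood at 30.1%, 42%, 41.8%, 41.1% and 49.2% in premalignant and 60.1%, 68.5%, 62.4%, 70% and 58.5% in malignant mice. The groups did not overlap, FVB mice lay between 6.41% and 23.5%, and 25 of its 26 positions were gained singly (difference 25.99 points, SE 4.30, limma adjusted p = 0.0208). These 26 positions are among the 34 of the Mab21l2 promoter, which all lie downstream of the start. The Fam43a exon stood at 15.3%, 8.35%, 17.4%, 15% and 17.6% in premalignant and 35.4%, 33.7%, 28.9%, 44% and 44.9% in malignant mice, again apart, with FVB between 2.01% and 10.2%. Its difference from FVB was 20.75 points (SE 3.33, limma adjusted p = 0.0206) and was called without each of the 22 mice in turn, that near Ajap1 in 19 of the 22 fits and that in Mab21l2 in 21.

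The other gains lay wholly or in part in untranslated regions, and their sequences are not shown. The one in Dlc1, known as a tumor suppressor, averaged 45.1% ± 6.37 (SD, n = 5) and 67% ± 6.8 (SD, n = 5) and the FVB mice 2.67% to 15.4%. The one in Sh2b3, an adaptor that limits cytokine signaling, averaged 37.3% ± 8.16 (SD, n = 5) and 59.1% ± 6.4 (SD, n = 5). Its hyperplasia mice, at 28.3% and 28.5%, lay below the FVB mice at 31.5% to 39.4%, and all other PyMT mice lay above them. The one in Pnma1, 82 bp from its start, averaged 37.3% ± 8.92 (SD, n = 5) and 57.7% ± 4.04 (SD, n = 5), and its groups overlapped. The differences from FVB were 25.27 (Dlc1), 20.60 (Sh2b3) and 21.61 points (Pnma1), with limma adjusted p of 0.0224, 0.0486 and 0.0292, and were called in 18, 5 and 15 of the 22 fits that left out a mouse.

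Among the losses, the intergenic region nearest to Dkk2, a secreted Wnt antagonist whose start lay 219644 bp away, stood at 49.2% and 48% in hyperplasia, 46.8%, 33.7% and 38.8% in adenoma/MIN, 29.1%, 31.5% and 25.7% in early and 16.2% and 20.6% in late carcinoma. The 2 phases did not overlap and FVB mice lay between 56.5% and 64%. The Scube3 region, in a gene for a secreted EGF-domain protein, stood at 44.4%, 47.8%, 45.1%, 37.8% and 40.7% in premalignant and 31.7%, 31.9%, 27.6%, 23.5% and 34.9% in malignant mice. The phases did not overlap, and FVB mice, between 68.4% and 81.9%, were above every PyMT mouse.

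The intron of Dlgap2, a postsynaptic scaffold gene, averaged 81.2% ± 4.95 (SD, n = 5) and 65.7% ± 5.15 (SD, n = 5), and the exon of Eml2, a microtubule-binding protein, 67.1% ± 3.63 (SD, n = 5) and 54.3% ± 2.01 (SD, n = 5), both without overlap. This Eml2 exon lay 887 bp from the start of Mir330. Its 7 positions are among the 35 of the Mir330 promoter described above and include all 4 positions lost singly there. The region in Gabbr1, a subunit of the GABA-B receptor, averaged 67.6% ± 8.86 (SD, n = 5) and 48.1% ± 9.35 (SD, n = 5) with overlap, at a low mean coverage of 30.7 reads, while FVB went from 61.4% ± 3.83 (SD, n = 6) to 74% ± 4.38 (SD, n = 6). The region nearest to Runx1t1, a transcriptional corepressor, averaged 82.8% ± 4.17 (SD, n = 5) and 70.5% ± 5.25 (SD, n = 5), also with overlap. The differences from FVB were -21.12 (Dkk2), -19.14 (Scube3), -18.21 (Dlgap2), -16.67 (Eml2), -32.09 (Gabbr1) and -15.26 points (Runx1t1), with limma adjusted p from 0.0224 to 0.0375. They were called in 15 (Dkk2), 16 (Scube3), 19 (Dlgap2), 9 (Eml2), 19 (Gabbr1) and 7 (Runx1t1) of the 22 fits that left out a mouse.

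**Figure D4:**
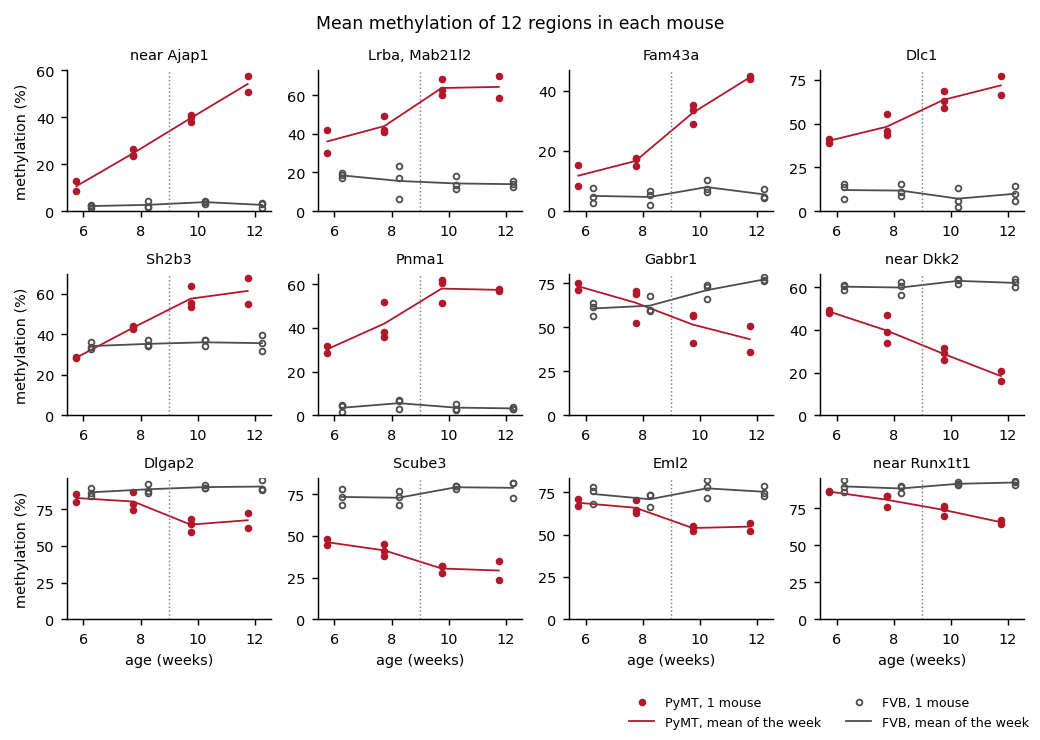
Mean methylation (percent, vertical axis) of each mouse by age in weeks in the 6 regions with the largest gain and the 6 with the largest loss in PyMT among those that differed from FVB; filled points are PyMT mice, open points FVB mice and lines join the means of the weeks. Near Ajap1 the PyMT mice run from 8.41% to 57.5% while FVB mice stay under 4.53%, and near Dkk2 the PyMT mice run from 49.2% down to 16.2%.

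Promoters of many developmental regulators were higher in malignant glands at an unadjusted p under 0.05. Gene groups are described by their counts at that p beside the 9.11% higher, 2.4% lower and median change of 0.0178 points over all genes. Of 147 transcription factors of development outside the Hox clusters, 63 were higher (42.9%) and 0 lower, with a median change of 0.737 points. In 5 of them the change exceeded that in FVB by limma, against 0.774% of all promoters. Phox2a, of autonomic neurons, averaged 17% ± 1.86 (SD, n = 5) and 23.3% ± 1.45 (SD, n = 5) (limma adjusted p = 0.00914). Others were Gsx2 (3.26% and 5.46%), Irx4 (3.54% and 4.49%) and Barx1 (1.27% and 2.21%).

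Of 39 Hox genes, which pattern the body axis, 16 were higher (41%) and 1 lower, with a median change of 0.908 points, and 0 differed from FVB. Hoxd1 (5.93% and 10.6%) and Hoxd12 (7.48% and 10.8%) had the widest differences among those with an unadjusted p under 0.05. Of 31 PRC2 targets that the study listed for late carcinoma only, 15 were higher (48.4%) and 1 lower, with a median change of 0.978 points, and 1, the GABA-A receptor gene Gabra2 (3.66% and 8.22%), differed from FVB. Of 41 it listed for all stages, 13 were higher (31.7%) and 0 lower, with a median of 0.713 points. Cyp26c1, an enzyme that degrades retinoic acid, averaged 57.1% ± 2.12 (SD, n = 5) and 66.5% ± 1.87 (SD, n = 5), and the homeobox gene Nkx2-9 averaged 3.76% ± 0.42 (SD, n = 5) and 6.04% ± 0.38 (SD, n = 5), both different from FVB (limma adjusted p = 0.0132 and 0.00373). Hoxb7, Hoxb8, Hoxc12 and Hoxd13 also stand in the first of these lists and Hoxc5 and Hoxc6 in the second, and other genes too stand in more than 1 list. The study drew both lists from these samples, so their direction is not independent evidence. Named members of lists were chosen after their values were seen.

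Of 43 Wnt ligands, receptors and antagonists, 11 were higher (25.6%) and 0 lower, with a median of 0.281 points, and 0 differed from FVB. The receptor Fzd2 averaged 32% ± 5.18 (SD, n = 5) and 41.1% ± 3.25 (SD, n = 5) with 24 gained positions (limma adjusted p of the difference from FVB 0.0534), and the antagonist-family gene Dkk3 averaged 22.9% ± 2.83 (SD, n = 5) and 31.5% ± 5.19 (SD, n = 5). Of 29 tumor suppressors known to be methylated in human breast cancer, 7 were higher (24.1%) and 0 lower. Hic1, a transcriptional repressor, averaged 19% ± 1.29 (SD, n = 5) and 22.3% ± 1.44 (SD, n = 5) and differed from FVB (limma adjusted p = 0.0209). Of 19 genes of epithelial-mesenchymal transition that the study listed at weeks 10 and 12, again from these samples, 7 were higher (36.8%), led by Tagln, an actin-binding protein of smooth muscle, at 42.3% ± 4.6 (SD, n = 5) and 52.9% ± 4.45 (SD, n = 5). Of 16 PRC2, DNMT and TET genes 0 were higher and 0 lower.

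Markers of the cell types that a gland can hold were looked at the same way. Of 18 luminal epithelial markers 2 were higher and 1, the keratin gene Krt8 (1.57% and 0.831%), lower. Of 10 basal and myoepithelial markers 2 were higher, Tagln among them, and of 7 fibroblast markers 3. Of 12 endothelial markers 3 were higher and 1 lower, and Flt4, the receptor of lymphatic endothelium, differed from FVB (1.89% and 3.08%, limma adjusted p = 0.0195). Of 11 adipocyte markers 0 were higher at that p and the leptin gene Lep (43.7% and 36.8%) was lower, and of 6 leukocyte markers 0 were higher and 0 lower. Whatever the p, the malignant mean was higher at 11 luminal, 8 basal, 5 fibroblast, 7 endothelial, 9 adipocyte and 3 leukocyte promoters, against 55.7% of all genes. The median change was 0.0355 points for luminal and 0.263 for adipocyte markers, so Krt8 and Lep do not stand for their lists. The mean over the marker promoters ranged among premalignant mice from 6.65% to 8.39% and among malignant mice from 6.96% to 9.05% for luminal genes, from 11.4% to 12.7% and 11.2% to 12.6% for adipocyte genes, from 19.9% to 22.4% and 20.4% to 23.6% for endothelial genes, and from 58.1% to 63.5% and 56% to 62.2% for leukocyte genes. For basal genes the ranges were 13.4% to 15.6% and 14.6% to 16.6%, and for fibroblast genes 20.8% to 22.3% and 20.6% to 24.1%. The part of cell make-up in the changes above was not tested.

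Of 21 germline genes 4 were higher and 0 lower, with a median change of 1.9 points at promoters that stood at a median of 82.1%, and of 25 imprinted genes 4 were higher and 0 lower, with a median change of 1.46 points. The imprinted gene Dlk1 averaged 1.83% ± 0.76 (SD, n = 5) and 3.43% ± 1.25 (SD, n = 5) and differed from FVB (limma adjusted p = 0.0262). The plot of lists sets these counts beside those over all genes.

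**Figure D5:**
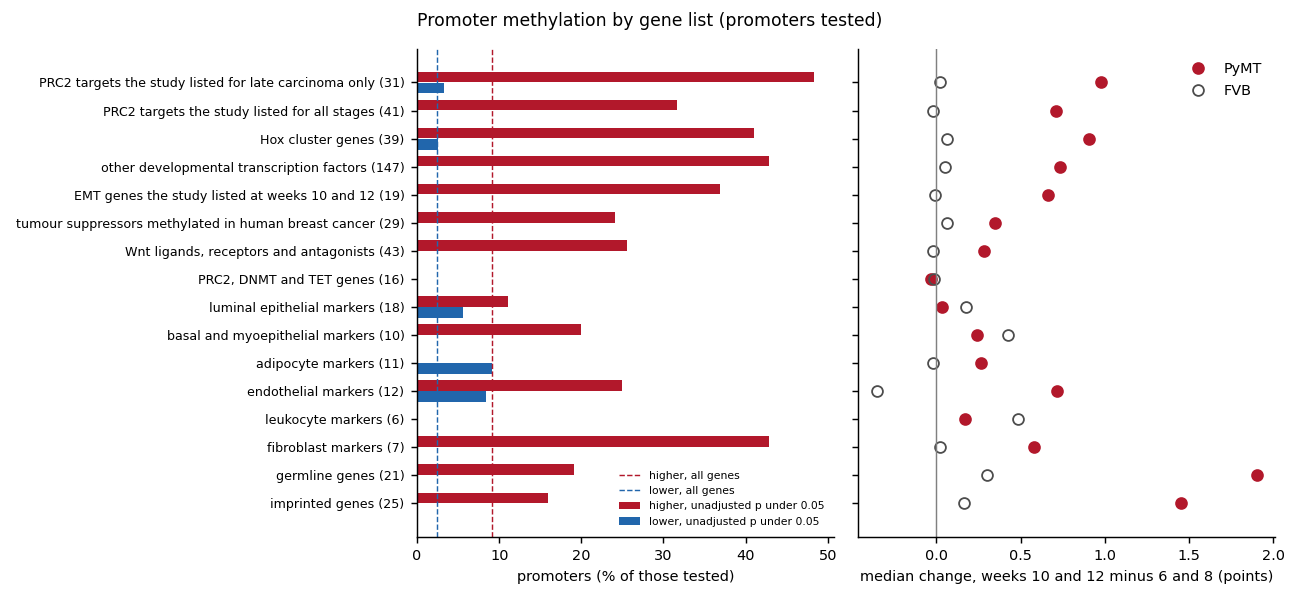
Left, the share of tested promoters in each gene list (number tested in parentheses) that were higher or lower in malignant PyMT glands at an unadjusted p under 0.05, with dashed lines for all genes at 9.11% and 2.4%; right, the median change in points in PyMT (filled) and FVB glands (open) over the same weeks. The late carcinoma PRC2 list has the longest bar, at 48.4%, and the PRC2, DNMT and TET genes have none.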

How the data were processed

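Genomic DNA of snap-frozen mammary tumors and glands was assayed by ERRBS in 10 PyMT and 12 FVB mice. The authors aligned reads with Bismark to mm10, kept CpG cytosines with a coverage of 10 or more, each strand listed on its own, removed 2 outlier samples from 3 mice per strain and time point, and deposited 1 table per mouse. Its coverage column is a count of reads per cytosine, as deposited, and the deposited percent columns give the share of those reads that stayed C (methylated) or read as T. Incomplete conversion reads as methylation and duplicate reads cannot be told from separate molecules, so the read test covers counting error only.

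Methylated reads were taken as coverage times percent. Autosomal positions covered in all 10 PyMT files were tested by a logistic likelihood ratio test per position (NumPy 2.4.6, SciPy 1.17.1), with Benjamini-Hochberg q under 0.01 and at least 10 points. Every test against FVB used the positions covered in all 22 files, and so did FVB levels. PyMT levels of each mouse, and their group means, used the positions covered in all 10 PyMT files. Medians by stage set beside FVB used the positions covered in all 22 files for both. Promoters (2 kb on each side of curated RefSeq starts, GRCm38, at least 5 positions) and regions (runs with gaps of at most 100 bp, at most 300 bp long, at least 5 positions) were tested on each mouse's unweighted mean with limma 3.58.1 (trend and robust, R 4.3.3), at an adjusted p under 0.05 and at least 5 points for promoters or 10 for regions. The difference between strains was the PyMT change minus the FVB change in a fit of 22 mice in 4 groups. Single values per mouse were tested by exact permutation, two-sided. The code was tested on simulated data.

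All mice were separate animals per the methods. Replicate numbers did not pair the samples (same-number correlations of deviations from -0.0455 to 0.0257 over 12 pairs). The rule for names was the 12 largest gains and losses among called promoters, and 6 regions each way that passed both tests. Only Serping1 met it, so other promoters and regions were named by their PyMT change among those that differed from FVB, a choice made after the values were seen, as was the naming of genes by gained or lost positions and of list members. Ezh2, Eed, Suz12, the Dnmt and Tet genes, Fzd5 and Ajap1 were named in any case. The comparison, members and gene lists were chosen with earlier results of these data known. The alternatives were other coverage minimums, scales, weights, windows and sizes, merged strands, spread between mice, the replicate block, neighboring stages alone and each mouse left out. The trend and robust options off and 1 weight per strain were added after seeing the data. So were all alternatives of the regions against FVB, and mice left out of the comparison with FVB. The values of 1 member of the developmental transcription factors are not reported here.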

Additional observations from a re-analysis of the deposited data

Results flagged for a closer look

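In 188 groups of mice looked at for a value far from the rest, 10 values stood apart by Dixon's criterion, and chance gives about 1 in 20 groups. In premalignant glands these were adenoma/MIN replicate 3 at the Pnma1 promoter (55.6%, next 42.8%), hyperplasia replicate 2 at the Gm34653 promoter (81.8%) and in the Fam43a region (8.35%), and adenoma/MIN replicate 2 in the Gabbr1 region (52.3%). In malignant glands it was late carcinoma replicate 3 for the share of positions between 20% and 80% methylated (16.3%, next 14.5%). In FVB glands they were week 8 replicate 2 at Mir1905 (11.7%), week 6 replicate 2 at Ubqln5 (73.2%), week 12 replicate 3 at Foxs1 (65.3%), week 6 replicate 1 for the mean within 500 bp of a start (1.79%), and week 12 replicate 1 for the share of positions under 20% methylated (67.2%).

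The change over the weeks differed between PyMT and FVB glands by limma at 18 named promoters. PyMT minus FVB, in points, it was 22.83 at Mab21l2, 18.71 at Trim17, 18.68 at Ackr3, 18.18 at Pnma1, 15.93 at Mir1905, 15.37 at Bhmt2, 15.35 at Tcf20, 13.49 at Serping1, 13.30 at Rbm46, 13.22 at Rfx8, 13.16 at Tacc2, 13.09 at Cntnap5a and 3.85 at Tafa5. It was -15.06 at 4933409F18Rik, -11.54 at Gm34653, -10.15 at Fgf6, -9.35 at Ubqln5 and -3.56 at Mir330. It also differed in 12 named regions, by 25.99 in the Mab21l2 exon, 25.51 near Ajap1, 25.27 in Dlc1, 21.61 in Pnma1, 20.75 in Fam43a and 20.60 in Sh2b3, and by -32.09 in Gabbr1, -21.12 near Dkk2, -19.14 in Scube3, -18.21 in Dlgap2, -16.67 in Eml2 and -15.26 near Runx1t1. These are the features chosen for that difference, so their sizes are a description.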

How the results depend on the processing

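Positions gained and lost were 1006 and 587 with overdispersion and a chi-square test, 0 and 0 with an F test, 690 and 501 at 25 points, 2340 and 1680 without overlap of groups, and 6191 and 4984 between weeks 8 and 10. Coverage of 20 reads (11983 and 10563), merged strands (11818 and 11191) and the replicate block (11043 and 8867) stayed within 1.5 times. With each mouse left out, gains ran from 10406 to 15830 and losses from 8091 to 15846. The cause of these differences was not tested.

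Gained promoters were 0 with coverage of 20 reads, with coverage weights, with 500 bp windows, between weeks 8 and 10 and with the replicate block, 2 on the arcsine square root scale and at positions covered in all 22 files, and 0 to 6 with a mouse left out. Lost promoters and regions in the 10 PyMT mice remained at a count of 0 under every alternative run. Promoters that differed from FVB were 43 on the arcsine square root scale, 62 with the replicate block and 47 to 387 with a mouse left out, and regions 0, 31 and 11 to 500. All 12 named regions lost the call on the arcsine square root scale and 6 with the replicate block, and of the 18 named promoters that differed from FVB, 8 lost it under each. The same-numbered mice were separate animals, but replicate 1 held the most positions in each PyMT stage. Whether replicate numbers mark library batches was not tested, so calls lost under the block are given without a reading. In FVB glands, 0 to 3 promoters and 0 to 7 regions were called with a mouse left out. The cause of these shifts was not tested.

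The difference in mean methylation ran from -0.0275 to 0.165 points with a mouse left out, and that in the share between 20% and 80% methylated, 0.517 points, was -0.261 between weeks 8 and 10. Directions at near-unmethylated promoters turned with 1 mouse left out, from -0.0421 to 0.0292 at Eed, -0.0275 to 0.0547 at Suz12 (-0.016 at positions covered in all 22 files) and -0.0628 to 0.0168 at Dnmt3a. Groups of 5 mice and bulk tissue limit all calls. The autosomal positions of the PyMT files had a median of 51 to 66 reads per mouse. Called positions had a median coverage, averaged over the 10 mice, of 73.6 reads for gains and 71.1 for losses.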
